A study of Mus musculus with 6 samples.

Results

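Class II antigen presentation was examined through 4 genes, each read by 1 probe set among the 12780 genes compared: H2-Aa, which encodes the alpha chain of the mouse class II molecule I-A; Cd74, which encodes the invariant chain; Ctss, which encodes the protease cathepsin S; and Lgmn, which encodes the protease legumain. They were taken by gene symbol in the platform annotation. The study set anti-CD40 stimulated migratory cDC1 (type 1 dendritic cells, known for cross-presenting antigen to CD8 T cells) beside unstimulated ones, both wild-type C57BL/6 and both from lymph nodes that drain the skin, with 3 samples in each group and 1 Affymetrix array per sample. The labels state neither the ages of the mice nor the dose, time or route of the antibody. In both groups the cells had been sorted as XCR1-positive, Sirpa-negative, B220-negative, CD326-negative and CD40-positive cells with intermediate CD11c and high MHC class II on the surface, so each group was already gated on the protein that H2-Aa encodes a part of. The labels call the samples biological replicates without naming the mice behind them, and p-values here therefore reflect only sample-to-sample spread, some of which may be technical.

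Class II molecules show peptides from endosomes to CD4 T cells. The alpha and beta chains are assembled with the invariant chain, which fills the peptide groove and carries the complex to the endosome. There legumain and other proteases begin to trim the invariant chain, and cathepsin S makes the late cut in dendritic cells and B cells that leaves only a small fragment in the groove. That fragment is then exchanged for antigen peptide with the help of H2-DM. Dendritic cells that mature keep class II on their surface for longer and, as a rule, make less of it anew. The transcription of the chains and of the invariant chain depends on the coactivator CIITA, which acts on an X box and a Y box in their promoters.

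Promoter sequences are shown to set the class II chain gene, with its boxes, beside the protease genes. RefSeq's promoter table held 3 of the 4 members, all but Cd74. Each line gives the 250 bases before the start site, 5' to 3' on the strand of the gene. Capitals mark the letters found for 4 motifs searched on both strands: the Y box core CCAAT, which on the other strand reads as ATTGG, the X box, the cyclic AMP response element TGACGTCA, and the core of the interferon regulatory factor element. The X box was searched as 11 letters with any base allowed at the third, the fourth, the seventh and the ninth place, as in AGCAACTGATG. The interferon regulatory factor core was searched as 10 letters with any base allowed at the fifth and the sixth place, as in GAAACCGAAA. The last 2 motifs were added after the sequences had been seen.
H2-Aa (GRCm38.p6, chr17:34287824-34288073, minus strand): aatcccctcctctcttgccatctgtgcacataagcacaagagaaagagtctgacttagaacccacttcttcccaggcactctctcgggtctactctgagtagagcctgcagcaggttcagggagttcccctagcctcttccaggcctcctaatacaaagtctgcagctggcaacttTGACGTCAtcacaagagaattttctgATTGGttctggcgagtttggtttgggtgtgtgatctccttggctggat
Ctss (GRCm38.p6, chr3:95526536-95526785, plus strand): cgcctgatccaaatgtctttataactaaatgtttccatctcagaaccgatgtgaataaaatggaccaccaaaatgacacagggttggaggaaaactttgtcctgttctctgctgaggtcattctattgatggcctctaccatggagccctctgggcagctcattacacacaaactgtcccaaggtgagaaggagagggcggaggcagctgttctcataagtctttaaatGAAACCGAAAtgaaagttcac
Lgmn (GRCm38.p6, chr12:102439729-102439978, minus strand): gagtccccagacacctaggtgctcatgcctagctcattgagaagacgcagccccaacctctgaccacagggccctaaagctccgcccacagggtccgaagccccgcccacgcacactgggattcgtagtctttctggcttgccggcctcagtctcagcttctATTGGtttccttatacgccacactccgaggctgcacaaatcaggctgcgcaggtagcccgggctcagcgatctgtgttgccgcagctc

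The H2-Aa promoter had a Y box core 48 to 44 bases before the start site and a cyclic AMP response element 74 to 67 bases before it. The exact X box letters searched were not found in this window of H2-Aa. They were found 92 to 82 bases before the start of the beta chain gene H2-Eb1, of which 80 bases are printed for comparison. Y box cores lay 59 to 55 and 35 to 31 bases before that start. The letters GCAACT of the H2-Eb1 X box match also stand in the H2-Aa window, shortly before the cyclic AMP response element. A search by fixed letters can miss a variant, so it does not show that H2-Aa lacks an X box.
H2-Eb1 (GRCm38.p6, chr17:34305765-34305844, plus strand): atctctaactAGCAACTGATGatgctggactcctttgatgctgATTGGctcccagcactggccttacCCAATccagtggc

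The Ctss promoter held neither box by these letters, and had an interferon regulatory factor core 21 to 12 bases before the start. The Lgmn promoter had a Y box core 88 to 84 bases before the start and none of the other letters. Over the 32851 promoter windows of 300 bases in the table, 37.4% held a Y box core, 4.61% the X box letters, 1.79% the cyclic AMP response element and 3.44% the interferon regulatory factor core, so a Y box core alone is common. The 4 motifs do not overlap in the sequences printed. A match describes letters and is not a binding site.

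The 4 genes did not share 1 direction. H2-Aa had nearly equal group means, Cd74 and Ctss had lower mean levels in stimulated cells by about the same amount, and Lgmn had a higher mean level. In the limma fit over all genes 0 of the 4 passed an adjusted p under 0.05. Of all genes, 0.0156% passed with higher values in stimulated cells (Cd70 and Tnfsf9, genes of costimulatory ligands of the TNF family) and 0% with lower values. Before adjustment, Cd74 and Ctss were under 0.05, on the side of lower values, where 1.42% of all genes were, and 0 members were under it on the side of higher values, where 2.07% were. With 3 arrays a group the number of arrays limits the precision, and the members are read below by their values, intervals and overlap. In sorted bulk cells, fewer cells that carry an RNA and less of it per cell cannot be told apart.

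H2-Aa, the class II alpha chain gene, had log2 intensities of 12.75, 12.02 and 12.88 in stimulated replicates 1, 2 and 3, against 12.85, 12.18 and 12.63 in unstimulated replicates 1, 2 and 3. The groups lay over each other, and replicate 2 was the lowest array in both. The means were 12.55 ± 0.46 in stimulated and 12.55 ± 0.34 in unstimulated cells (SD, n = 3 each), a log2 difference of -0.004 ± 0.29 (SE, 95% interval -0.67 to 0.67) with an unadjusted limma p of 0.988 and an adjusted p of 0.99997. The exact permutation p was 1, two-sided. On the linear scale that interval runs from 0.627-fold to 1.59-fold, so a change in either direction within that range was not excluded by these arrays. The deposited intensities of H2-Aa ran from 4165 to 7519 in stimulated and from 4646 to 7377 in unstimulated cells, against array maxima of 12734 to 13701 over all probe sets, and whether so bright a probe set still responds in proportion was not tested.

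Cd74, whose product is the chaperone that fills the class II groove, had log2 intensities of 10.64, 10.32 and 10.15 in stimulated replicates 1, 2 and 3, against 11.49, 10.63 and 11.32 in unstimulated replicates 1, 2 and 3. Stimulated replicate 1 lay just above unstimulated replicate 2, so the groups overlapped by that 1 array, and the other stimulated values were below all unstimulated ones. The mean was 10.37 ± 0.25 in stimulated and 11.14 ± 0.45 in unstimulated cells (SD, n = 3 each). The log2 difference was -0.78 ± 0.27 (SE, 95% interval -1.40 to -0.15), a stimulated level 0.584 of the unstimulated one, with an unadjusted limma p of 0.0216 and an adjusted p of 0.99997. An exact permutation test over the 20 ways of dividing the arrays gave a two-sided p of 0.2.

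Ctss, the cathepsin gene of the late cut, had log2 intensities of 9.89, 10.13 and 9.44 in stimulated replicates 1, 2 and 3, against 10.64, 10.49 and 10.67 in unstimulated replicates 1, 2 and 3. All 3 stimulated arrays lay below all 3 unstimulated ones, and it was the only one of the 4 genes whose groups did not overlap. Of all genes, 3.46% had groups that did not overlap with stimulated values lower, and 3.68% with stimulated values higher. The unstimulated arrays lay within 0.18 of each other, while the stimulated ones spanned 0.68. The mean was 9.82 ± 0.35 in stimulated and 10.60 ± 0.10 in unstimulated cells (SD, n = 3 each). The log2 difference was -0.78 ± 0.21 (SE, 95% interval -1.28 to -0.29), a stimulated level 0.581 of the unstimulated one, with an unadjusted limma p of 0.00725 and an adjusted p of 0.99997. The exact permutation p was 0.1, two-sided, the smallest that 3 against 3 arrays allow.

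Lgmn, the gene of the asparagine-specific protease, had log2 intensities of 10.34, 8.98 and 9.58 in stimulated replicates 1, 2 and 3, against 9.46, 8.42 and 8.53 in unstimulated replicates 1, 2 and 3. Stimulated replicates 1 and 3 were the highest of the 6 arrays and unstimulated replicates 2 and 3 the lowest, with stimulated replicate 2 below unstimulated replicate 1. The means were 9.63 ± 0.68 in stimulated and 8.81 ± 0.57 in unstimulated cells (SD, n = 3 each), a log2 difference of 0.83 ± 0.41 (SE, 95% interval -0.13 to 1.79) or 1.78-fold, with an unadjusted limma p of 0.0805 and an adjusted p of 0.99997. The exact permutation p was 0.2, two-sided. Without stimulated replicate 1 the difference was 0.48. Lgmn was the least steady of the 4 within a group: its pooled SD of 0.63 exceeded that of 91.1% of all genes, while that of Ctss, 0.25, was near the median of 0.28.

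**Figure D1:**
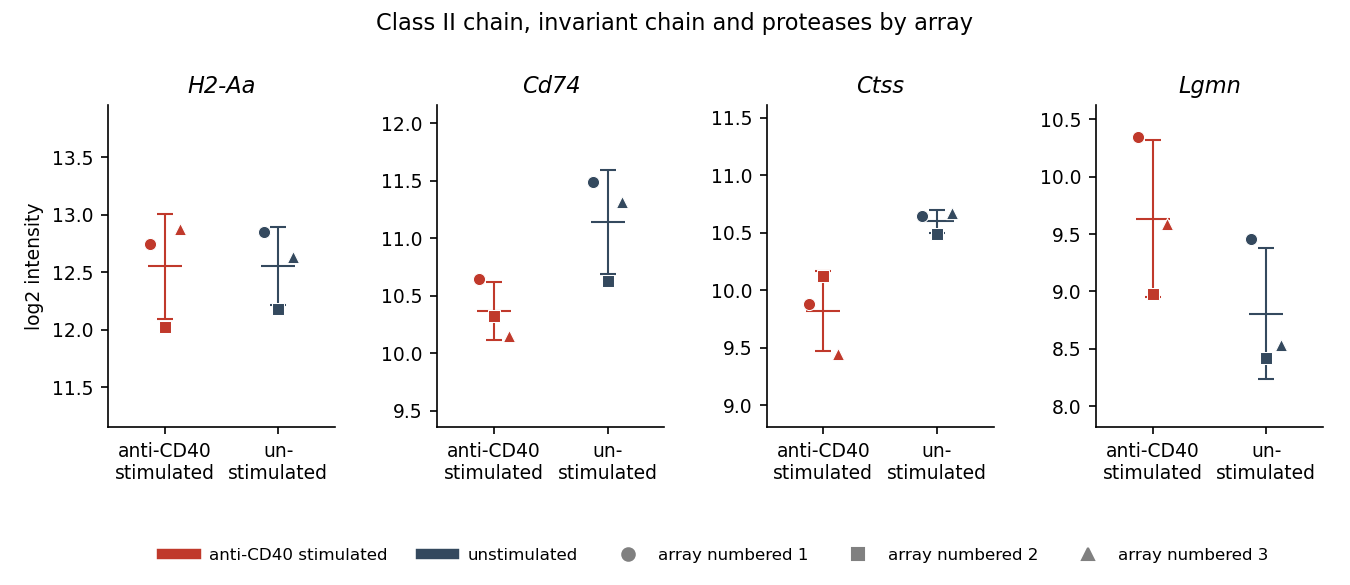
Log2 intensity of H2-Aa, Cd74, Ctss and Lgmn on each array, with anti-CD40 stimulated cells left of unstimulated cells; symbols are arrays, horizontal lines are means, bars are SD (n = 3), and each vertical axis spans the same width but starts elsewhere. The H2-Aa groups cover the same range, the 3 stimulated Ctss arrays lie below the 3 unstimulated ones, and the Cd74 and Lgmn groups overlap at 1 array each.

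The spread inside the groups had a pattern. The interquartile range of log2 intensities over all probe sets, a measure of how far an array spreads dim and bright signals, was 2.40, 1.87 and 2.15 in stimulated replicates 1, 2 and 3, and 2.27, 1.86 and 2.02 in unstimulated replicates 1, 2 and 3. H2-Aa and Lgmn were lowest on the narrowest array, number 2, in both groups, and Lgmn was highest on the widest, number 1, in both groups. Ctss went the other way in stimulated cells, with its highest value on array 2. With the interquartile range as a covariate, the log2 difference of Lgmn was 0.59 (95% interval 0.23 to 0.96, adjusted p = 0.34) and that of H2-Aa -0.14 (-0.57 to 0.30, adjusted p = 0.944). The same fit gave -0.88 for Cd74 (-1.36 to -0.39, adjusted p = 0.275) and -0.77 for Ctss (-1.25 to -0.29, adjusted p = 0.352). The interval of Lgmn then lay above 0, and 0 of the 4 genes passed. Array medians lay between 51.9 and 56.3 and arrays of 1 group correlated across genes at 0.915 to 0.958.

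Whether 2 members differed from each other in their change was asked with the log2 ratio of the 2 within each array, for the 6 pairs. A shift of a whole array cancels in such a ratio, but a difference in interquartile range between arrays need not. Over the 6 arrays the interquartile range correlated with Lgmn at 0.886, H2-Aa at 0.834, Cd74 at 0.246 and Ctss at -0.279. The ratios were not adjusted for it. The level of a ratio has no meaning of its own because the probe sets differ, so only its difference between groups is read. Lgmn over Ctss was 0.45, -1.15 and 0.14 in stimulated replicates 1, 2 and 3, against -1.18, -2.07 and -2.14 in unstimulated replicates 1, 2 and 3. All stimulated ratios were higher, though stimulated replicate 2 and unstimulated replicate 1 nearly met. The log2 difference was 1.61 ± 0.58 (SE), a 3.06-fold higher ratio in stimulated cells. Lgmn over Cd74 was -0.30, -1.34 and -0.56 in stimulated replicates 1, 2 and 3, against -2.03, -2.21 and -2.78 in unstimulated replicates 1, 2 and 3, a log2 difference of 1.60 ± 0.39 (SE). These groups were clear of each other, with the nearest arrays further apart than for any other pair.

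H2-Aa over Cd74 was 2.11, 1.70 and 2.73 in stimulated replicates 1, 2 and 3, against 1.36, 1.55 and 1.32 in unstimulated replicates 1, 2 and 3. The ratio of the class II chain to its chaperone was thus higher on all 3 stimulated arrays, by 0.77 ± 0.31 (SE), although Cd74 alone overlapped; without stimulated replicate 3 the difference was 0.495. Lgmn over H2-Aa differed by 0.83 ± 0.33 (SE) and also had all stimulated arrays higher. Its stimulated replicate 3 (-3.29) and unstimulated replicate 1 (-3.39) nearly met. H2-Aa over Ctss differed by 0.78 ± 0.47 (SE) with overlapping groups, and by 0.43 without stimulated replicate 3 and 1.196 without stimulated replicate 2. Ctss over Cd74 differed by -0.01 ± 0.27 (SE), with -0.76, -0.19 and -0.70 in stimulated replicates 1, 2 and 3 and -0.84, -0.14 and -0.64 in unstimulated replicates 1, 2 and 3. The groups of this pair covered nearly the same range, and leaving out 1 array moved the difference between -0.19 and 0.19.

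In the exact permutation test 4 of the 6 pairs had groups that did not overlap and a two-sided p of 0.1, the smallest possible, which is 0.15 after adjustment over the 6 pairs. The 6 ratios are built from the same 4 genes, and Lgmn or Cd74 is in each of these 4 pairs, so they are not separate results. The share of all gene pairs without overlap was not computed, so whether 4 of 6 is unusual is not known. H2-Aa over Ctss had an exact p of 0.3 (0.36 adjusted) and Ctss over Cd74 one of 1 (1 adjusted). This permutation test cannot give a p under 0.1 with 3 arrays against 3, a limit of the test used, and no model-based test was run on the ratios.

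**Figure D2:**
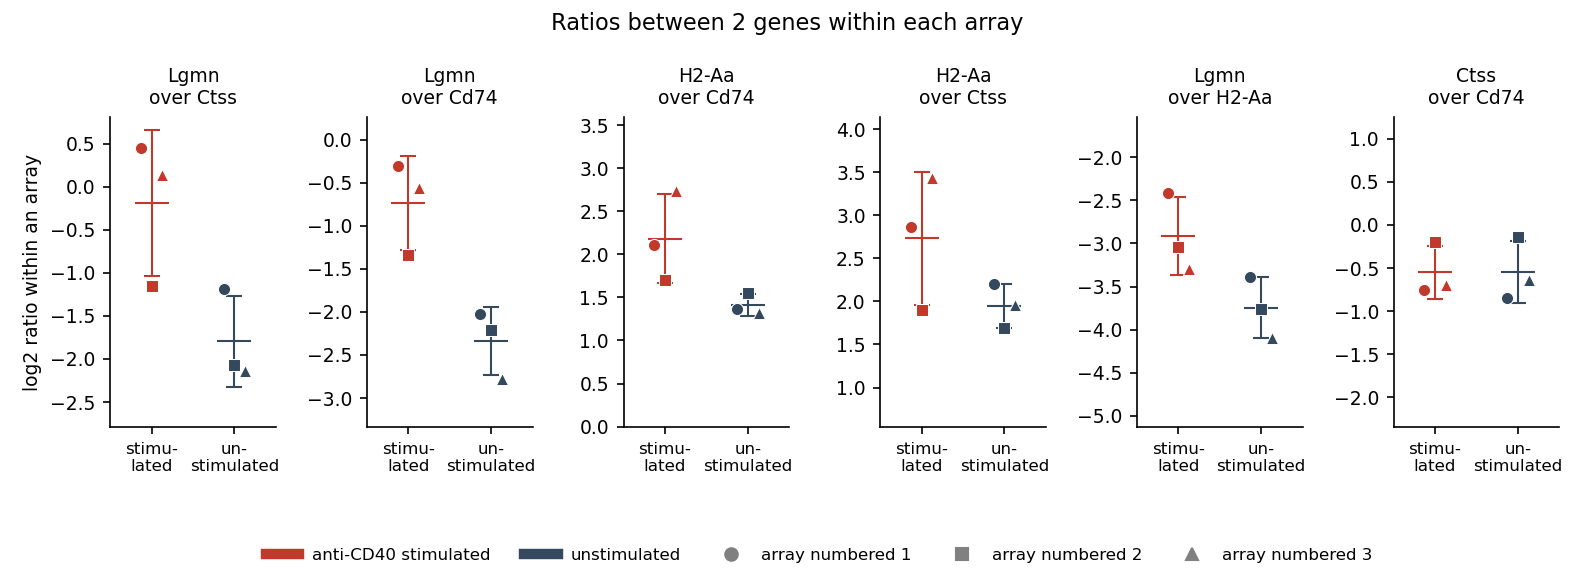
Log2 ratio of 2 genes within each array for the 6 pairs, anti-CD40 stimulated left of unstimulated; symbols are arrays, lines are means, bars are SD (n = 3), and all axes span the same width. Only the difference between the groups of a panel is comparable: it is 1.61 for Lgmn over Ctss, 1.60 for Lgmn over Cd74 and -0.01 for Ctss over Cd74.

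The other genes of the pathway were read from 8 lists with 58 genes, of which 37 were measured, members included. Of the 37, 21 had higher and 16 lower means in stimulated cells, with a median log2 difference of 0.06 beside 0.005 over all genes, and 0 passed the adjusted threshold in either direction. Separate groups were seen for 4 genes with higher stimulated values (H2-Ab1, Ctsc, Cst3 and Ciita, 10.8%, against 3.68% of all genes) and for 4 with lower ones (Ctss, Ctso, Marchf8 and Cxcr4, 10.8%, against 3.46%). Every probe set in the table had a higher group mean at or above a lower bound, given with the processing. Only the unstimulated mean reached that bound for Marchf8 (3.85 in stimulated, 4.36 in unstimulated cells) and Ctso (4.21 and 4.46). Both means reached it for Ctsc and Ciita, the dimmest of the genes with higher values. The part of this bound in the share of lower genes was not tested. The lists were chosen with earlier results of these data known and hold the members, so the shares of separate groups are no test of the pathway.

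The other chain genes had means at or above those of unstimulated cells, with wide intervals. H2-Ab1 encodes the beta chain that H2-Aa pairs with, and it had log2 intensities of 9.87, 9.86 and 10.71 in stimulated replicates 1, 2 and 3, against 9.79, 9.65 and 9.80 in unstimulated replicates 1, 2 and 3. All stimulated arrays were higher, 2 of them by little, and stimulated replicate 3 stood above the rest. The log2 difference was 0.40 (95% interval -0.21 to 1.001, unadjusted p = 0.165 in the limma fit over all genes, adjusted p = 0.99997). H2-Eb1, the beta chain of the second class II molecule I-E, averaged 10.19 ± 0.95 in stimulated and 9.96 ± 0.76 in unstimulated cells (SD, n = 3 each), a spread that covers the difference of 0.23. C57BL/6 mice carry a defect in the I-E alpha chain gene and do not show I-E on the surface, and the H2-Ea symbols had no probe set in the table. H2-Eb2, a close relative of H2-Eb1 with which it may share probe signal, differed by 0.10. Of the 4 chain genes measured, 3 had higher and 1 had lower means, with a median log2 difference of 0.17.

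Peptide editing genes showed no common direction. H2-DMa, the alpha chain of the editor that removes the invariant chain fragment, differed by 0.11 (95% interval -0.47 to 0.70). H2-Oa and H2-Ob, the chains of the inhibitor of that editor, differed by -0.18 (-0.99 to 0.62) for H2-Oa and -0.06 (-1.15 to 1.03) for H2-Ob. The H2-DMb genes share a probe set and were left out. Sppl2a, the intramembrane protease that clears the remaining stub of the invariant chain, differed by 0.31 (-0.47 to 1.08), in the direction opposite to Cd74.

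Among endosomal proteases, Ctss was the one with the most negative difference and Lgmn stood with 3 others at the positive end. Of 11 genes measured of 16 listed, 6 had higher and 5 lower means. Ctsb, which encodes cathepsin B, had log2 intensities of 9.52, 8.44 and 9.15 in stimulated replicates 1, 2 and 3, against 8.55, 8.11 and 7.81 in unstimulated replicates 1, 2 and 3. Its groups overlapped at stimulated replicate 2, and its difference of 0.88 (95% interval 0.13 to 1.63, unadjusted p = 0.0278 in the limma fit over all genes, adjusted p = 0.99997) was close to that of Lgmn. Like Lgmn it was lowest on array 2 in stimulated cells.

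Ctsc, which encodes cathepsin C, an aminopeptidase that activates granule proteases, had 5.12, 5.33 and 5.66 in stimulated replicates 1, 2 and 3, against 4.17, 4.81 and 4.61 in unstimulated replicates 1, 2 and 3. It was dim in both groups. Its groups did not overlap, and it differed by 0.84 (95% interval 0.29 to 1.39, unadjusted p = 0.0084 in the limma fit over all genes, adjusted p = 0.99997). Ctsz, the carboxypeptidase cathepsin Z, differed by 0.78 with a wide interval (-0.46 to 2.02). Lgmn and these 3 genes had differences of 0.78 to 0.88, and Ctsc, the dimmest among them, alone had groups that did not overlap.

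The other proteases lay nearer to 0. Ctsl, which encodes cathepsin L, the enzyme that makes the late cut of the invariant chain in the thymic cortex, was dim (4.58 in stimulated and 4.59 in unstimulated cells) and differed by -0.005. Ctsh (0.11), Ctsf (-0.14), Ctso (-0.24) and the aspartic protease gene Napsa (-0.32) had intervals that held 0. Ifi30, whose product reduces disulfide bonds of antigens in the endosome, differed by 0.05 (-0.53 to 0.62). Inhibitors of cysteine proteases were represented by Cst3, the cystatin C gene, at 13.45 ± 0.09 in stimulated and 13.27 ± 0.07 in unstimulated cells (SD, n = 3 each) with groups that did not overlap, and Cstb, the cystatin B gene, which differed by -0.37 with overlapping groups.

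Control of class II gave small differences. Ciita, the coactivator of class II and invariant chain genes, was dim, with 4.58, 4.82 and 4.80 in stimulated replicates 1, 2 and 3, against 4.49, 4.57 and 4.49 in unstimulated replicates 1, 2 and 3. The stimulated arrays were all higher, the nearest pair only just, and the difference was 0.21 (95% interval -0.16 to 0.58). The X box factor genes Rfx5, Rfxap and Rfxank differed by 0.15, 0.0003 and 0.37, and the Y box factor genes Nfya, Nfyb and Nfyc by 0.06, 0.30 and -0.03. Marchf8, a ubiquitin ligase that can direct class II to the lysosome, had groups that did not overlap and a difference of -0.51 (-1.03 to 0.01) at dim levels of 3.85 in stimulated and 4.36 in unstimulated cells. Cd83, which protects class II from such ligases, differed by -0.05. Marchf1, a related ligase gene that was also listed, had no probe set in the table.

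Cd74 also serves as a surface receptor for the cytokine MIF together with CD44 or the chemokine receptor CXCR4. Of these partners, Cxcr4 had the lowest difference, -1.17 (95% interval -1.59 to -0.74, adjusted p = 0.209), with 10.60, 10.40 and 10.16 in stimulated replicates 1, 2 and 3, against 11.58, 11.44 and 11.65 in unstimulated replicates 1, 2 and 3. The ligand genes Mif (0.15) and Ddt (0.22) and the partner gene Cd44 (0.13) had intervals that held 0. Of the endosomal Toll-like receptors that lysosomal proteases activate, Tlr9 differed by -0.48 (-1.05 to 0.10), and its trafficking partner Unc93b1 by -0.17.

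**Figure D3:**
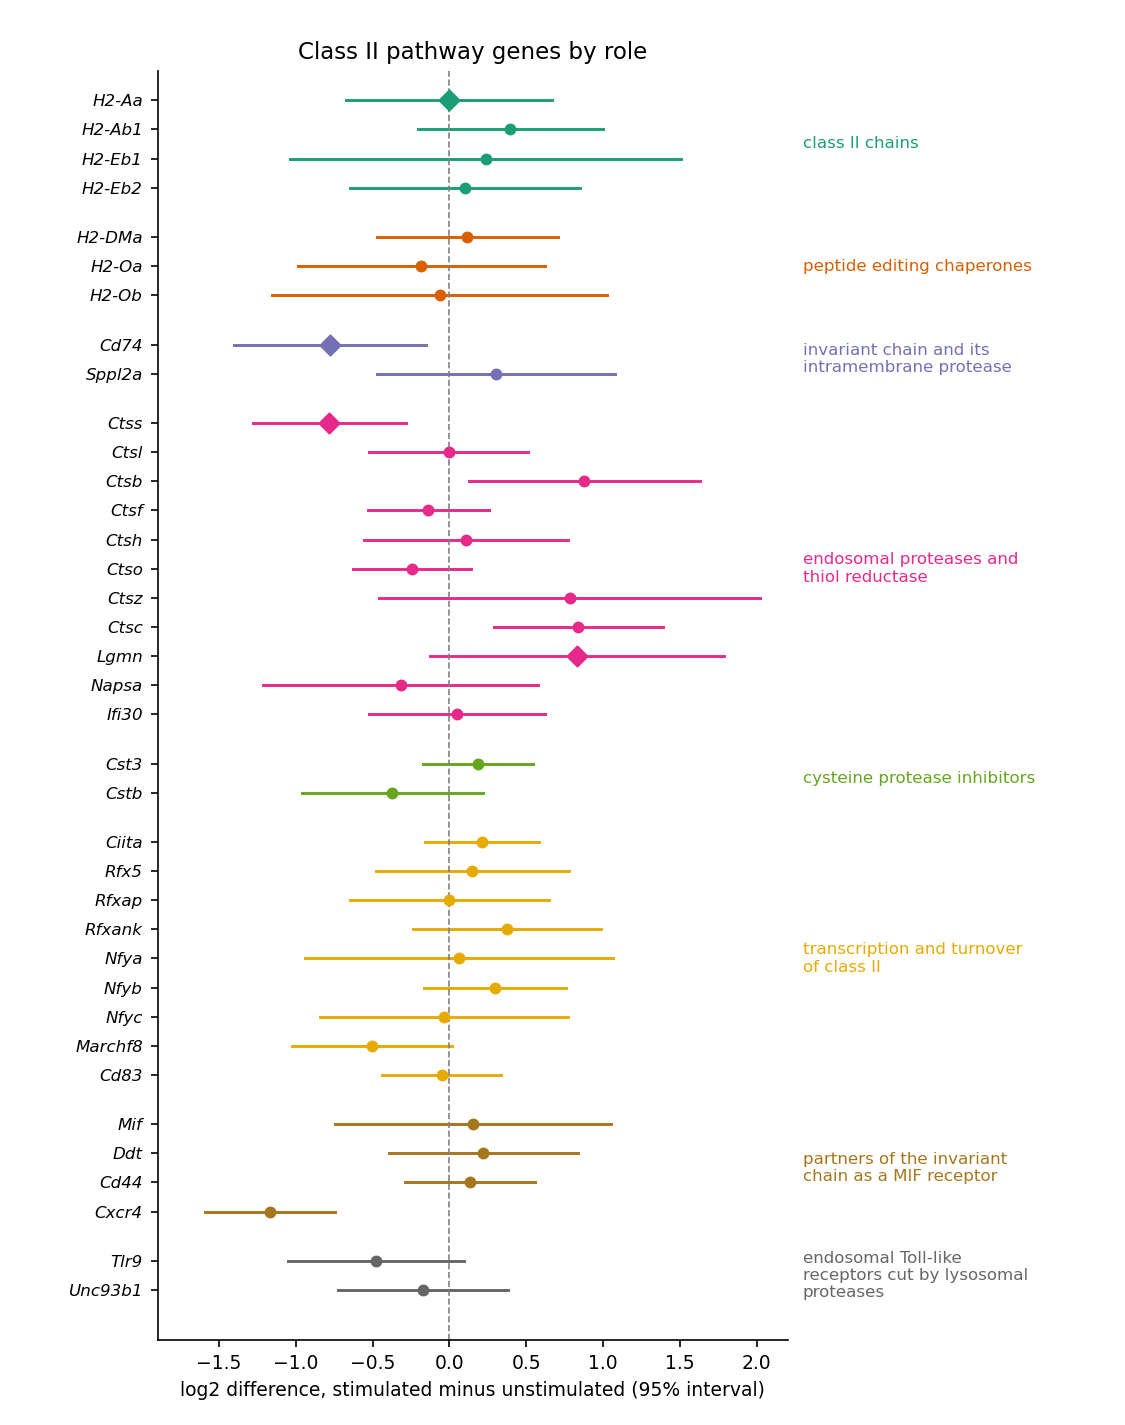
Log2 difference, anti-CD40 stimulated minus unstimulated, of 37 class II pathway genes grouped by role; points are estimates, bars are unadjusted 95% intervals of the limma fit, and diamonds are the 4 members. Cd74, Ctss and Cxcr4 have intervals below 0, Ctsb and Ctsc above it, and the class II chains lie across 0.

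The genes with the most similar profile differed between members. By Pearson's r of log2 intensity over the 6 arrays, H2-Aa was nearest to Usf2 (0.9988), Fbrsl1 (0.9969) and Arrdc1 (0.9945). Cd74 was nearest to Ears2 (0.9948), Vav3 (0.9865) and Phlpp1 (0.9857), Ctss to N4bp2l1 (0.9881), Galnt7 (0.9838) and Rcbtb2 (0.9811), and Lgmn to Hspb6 (0.993), Capn2 (0.989) and Ahnak (0.9886). H2-Aa and Lgmn, the 2 members lowest on the narrow arrays, had many neighbours, with an r over 0.9 for 4.06% and 3.54% of genes, against 0.686% for Cd74 and 0.471% for Ctss. With 6 arrays that share their processing these are descriptions of profile only.

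Markers of other cell types were checked beside the results, as summed intensity per array and as mean log2 intensity per gene. Of 9 B cell markers, 4 were measured, with sums of 114 to 177 in stimulated and 119 to 196 in unstimulated cells. All 4 were dim, and the brightest mean was 5.30 for Cd79b in stimulated and 5.47 for Ighm in unstimulated cells. Of 14 monocyte and macrophage markers, 2 were measured, with sums of 62.0 to 79.6 in stimulated and 68.7 to 79.1 in unstimulated cells. They were Csf1r, at 4.64 in stimulated and 4.76 in unstimulated cells, and Cx3cr1, at 5.53 in stimulated and 5.47 in unstimulated cells. Of 7 plasmacytoid dendritic cell markers, 5 were measured, with sums of 480 to 722 in stimulated and 493 to 606 in unstimulated cells. Bst2 was the brightest of them, at 8.34 in stimulated and 8.41 in unstimulated cells, followed by Tcf4 at 6.91 in stimulated and 6.83 in unstimulated cells. Siglech, Ly6d and Spib were dim, with means of 4.68 to 5.09 in stimulated and 4.57 to 4.94 in unstimulated cells. Of 8 cDC2 markers, 3 were measured, with sums of 92.9 to 134 in stimulated and 77.5 to 99.5 in unstimulated cells, and all 3 had higher means in stimulated cells. All 3 were dim, with means of 4.60 to 5.68 in stimulated and 4.45 to 5.22 in unstimulated cells. Only Sirpa among them had groups that did not overlap, and 0 had an unadjusted limma p under 0.05. Of 9 T cell markers, 6 were measured, with sums of 187 to 336 in stimulated and 173 to 264 in unstimulated cells. All 6 had higher means in stimulated cells, with a median log2 difference of 0.31. They were dim, with means of 4.87 to 5.78 in stimulated and 4.43 to 5.67 in unstimulated cells. Only Cd3e among them had groups that did not overlap, and 0 had an unadjusted limma p under 0.05. No marker was listed at 0, since the lowest intensity in the table was 6.97.

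Of 5 Langerhans cell markers, 3 were measured, with sums of 97.6 to 139 in stimulated and 97.7 to 118 in unstimulated cells. Epcam, which encodes the CD326 that the cells were sorted as lacking, had log2 intensities of 5.36, 5.51 and 5.06 in stimulated replicates 1, 2 and 3, against 4.71, 4.60 and 4.90 in unstimulated replicates 1, 2 and 3. All stimulated values were higher, at dim levels. The log2 difference was 0.57 (95% interval 0.13 to 1.01, unadjusted p = 0.0176 in the limma fit over all genes, adjusted p = 0.99997). Cd207 and Cldn1, the other Langerhans cell markers measured, differed by -0.07 and -0.15. The part of any of these cells in the values of the members was not tested.

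The markers of the labelled cell type were of mixed brightness. Of 12 cDC1 markers, 11 were measured, of which 7 had higher and 4 lower means in stimulated cells. Irf8, Batf3, Flt3, Id2 and Cd24a had means of 9.76 to 11.64 in stimulated and 9.35 to 11.26 in unstimulated cells. Cadm1, Zbtb46 and Clec9a lay between 6.41 and 7.79 in stimulated and between 6.67 and 7.43 in unstimulated cells. Itgae, Wdfy4 and Xcr1, whose protein was part of the gate, were dim, with means of 4.67 to 4.92 in stimulated and 4.44 to 4.91 in unstimulated cells. Cd24a was lower on all 3 stimulated arrays, with a log2 difference of -0.48 (95% interval -0.84 to -0.11, unadjusted p = 0.0177 in the limma fit over all genes, adjusted p = 0.99997), and Cadm1 was higher on all 3, by 0.36 (-0.04 to 0.76). Of 8 markers of migratory dendritic cells, 6 were measured, with means of 9.32 to 12.66 in stimulated and 8.27 to 12.57 in unstimulated cells, and 5 had higher means in stimulated cells. Cd200 was higher on all 3 stimulated arrays, with a log2 difference of 1.05 (95% interval 0.44 to 1.66, unadjusted p = 0.00462 in the limma fit over all genes, adjusted p = 0.952). The part of these differences in the values of the members was not tested.

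Under other settings of the fit, no member passed the adjusted threshold in any of the 18 tried for each gene, which include leaving out each array. Cd74 and Ctss were lower and Lgmn higher in all 18, with log2 differences of -1.03 to -0.58, -1.04 to -0.56 and 0.48 to 1.16. An unadjusted p under 0.05 was found in 13 of the 18 for Cd74, 17 for Ctss, 6 for Lgmn and 0 for H2-Aa. H2-Aa changed sign in 7 of them and stayed between -0.19 and 0.26.

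**Figure D4:**
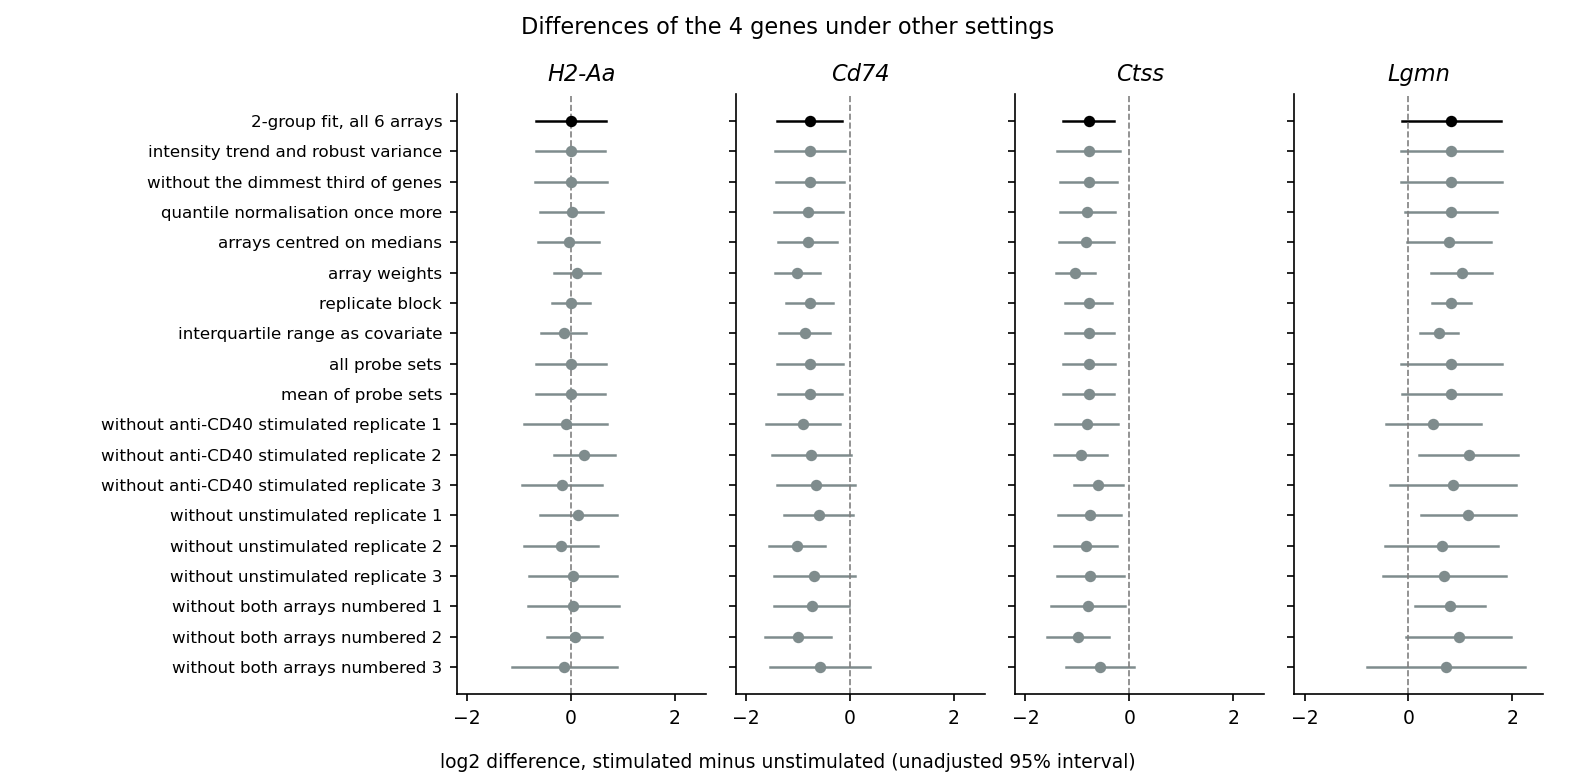
Log2 difference of each member, anti-CD40 stimulated minus unstimulated, in the 2-group fit (black, top) and under 18 other settings (grey), with unadjusted 95% limma intervals. H2-Aa lies around 0 throughout, Cd74 and Ctss lie at -0.56 or below, and Lgmn lies at 0.48 or above.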

How the data were processed

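Per the labels' protocols, total RNA of the sorted cells was extracted on columns and turned into biotinylated cDNA by the WT Pico kit. Expression Console and RMA are named, without versions or settings, per the submitters' processing notes. The authors deposited intensities of 17551 probe sets on a linear scale (6.97 to 13701), and log2 of each was taken here. The higher group mean was at least 20.0 for every probe set; whether dim probe sets were removed before deposit is not stated in the labels.

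The platform annotation gave 13963 probe sets 1 symbol, 970 several and 2618 none. Only those with 1 symbol were used, and the brightest probe set stood for a gene, which gave 12780 genes. The 2 groups were fitted without covariate (lmFit, eBayes) in limma 3.58.1 under R 4.3.3, with Benjamini-Hochberg adjustment over the 12780 genes, a threshold of 0.05 and 95% intervals. The procedure was tested on simulated data with noise drawn independently for each gene and array. That simulation does not cover structure that arrays share across genes. Ratios and single genes were tested by exact permutation. Figures used matplotlib 3.10.9 and Python 3.11.15.

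The members, the lists, the alternatives and the rule for named genes (members, pathway genes by role, and the 3 genes most like each member) were chosen with earlier results of these data known. Alternatives were other variance models, a filter on dim genes, other normalisations, array weights, a block for the replicate number, the interquartile range as a covariate, other probe set rules and leaving out arrays.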

Additional observations from a re-analysis of the deposited data

How the results depend on the processing

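The log2 difference of H2-Aa was positive with a second quantile normalisation (0.0117), with array weights (0.12), without both arrays numbered 1 (0.0438) and without both numbered 2 (0.0722), and ran from -0.19 to 0.26 when 1 array was left out. Leaving out 1 array gave -1.03 to -0.60 for Cd74, -0.94 to -0.60 for Ctss and 0.48 to 1.16 for Lgmn. For pairs it gave 1.29 to 2.09 (Lgmn over Ctss), 1.38 to 1.91 (Lgmn over Cd74), 0.50 to 1.01 (H2-Aa over Cd74), 0.43 to 1.196 (H2-Aa over Ctss), 0.58 to 1.02 (Lgmn over H2-Aa) and -0.19 to 0.19 (Ctss over Cd74).

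Deviations from the group means correlated across genes between same-numbered arrays, at 0.73, 0.59 and 0.06 for numbers 1, 2 and 3. Arrays numbered 1 and 2 thus shared structure by number, and those numbered 3 hardly did. The labels do not state whether the numbers pair samples, and the main fit did not use them. With the replicate block the differences of the members stay as they are (-0.004, -0.78, -0.78 and 0.83 for H2-Aa, Cd74, Ctss and Lgmn). The limma adjusted p values were 0.997, 0.211, 0.211 and 0.131. Unadjusted block intervals were -0.37 to 0.37, -1.23 to -0.32, -1.24 to -0.33 and 0.45 to 1.21 in that order. Between arrays numbered 1, 2 and 3, Lgmn differed by 0.88, 0.55 and 1.05, and H2-Aa by -0.10, -0.16 and 0.25. Cd74 differed by -0.84, -0.31 and -1.17, and Ctss by -0.76, -0.36 and -1.23. Arrays numbered 1 and 2 correlated best with their own number, as did stimulated replicate 3, but unstimulated replicate 3 correlated more with stimulated replicate 2 (0.19) than with stimulated replicate 3. Array weights gave the lowest adjusted p values of all settings, 0.0719 for Cd74, 0.0586 for Ctss and 0.124 for Lgmn, with weights of 2.196 for stimulated and 6.14 for unstimulated replicate 3 against 0.4755 to 0.59 for the other arrays.

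Over all genes, 2 passed with higher and 0 with lower stimulated values. Array weights gave 28 and 18, the replicate block 30 and 8, and the interquartile range 11 and 4. A second quantile normalisation and centring on medians gave 3 higher and 1 lower each. An adjusted p under 0.01, leaving out 1 array and leaving out both arrays of a number gave 0 in each direction. Dim genes lie near the lower end of the table, where a difference in intensity can understate one in RNA; background was not analysed here.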
